A study of Mus musculus with 12 samples.

Results

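Genes that carry sodium, chloride and water across the airway epithelium were examined in mouse airway organoids after laser ablation of cells. The set held 9 genes chosen by name, of 55401 genes listed: the sodium channel subunits Scnn1a, Scnn1b and Scnn1g, the chloride channels Cftr and Ano1, the anion exchanger Slc26a4, the cotransporter Slc12a2 and the water channels Aqp4 and Aqp5. All 9 were listed in the table of 12 libraries, 6 from ablation dishes and 6 from control dishes, and 7 passed the minimum of 10 normalized counts in 6 libraries. The organoids were grown from airway epithelial cells of adult C57BL/6J wild-type mice and, in both groups, had been transduced with a lentivirus that carries a Histone2A-mCherry fusion under a p63 promoter of human origin. In an ablation dish a femtosecond laser removed 10 adjacent cells from each of 45 organoids, while in a control dish of 45 organoids no cell was removed. Both dishes were in FluoroBrite DMEM without supplements from 1 h before the laser treatment and were harvested 4.5 h after it. An ablation dish and a control dish with the same number (1, 3, 4, 5, 6 or 7) shared passage and culture day and are called a pair here. RNA came from all organoids of a dish together, so fewer cells of a type and less RNA per cell cannot be told apart.

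Passage was P2+14 in pairs 1 and 3, P2+15 in pairs 4 and 5, and P2+16 in pairs 6 and 7. Culture days were 14 or 15 in pairs 1, 4 and 5 (early) and 18, 19 or 20 in pairs 3, 6 and 7 (late). The library numbers fell into 2 runs, called library sets here, with pairs 1, 3 and 5 in set 1 and pairs 4, 6 and 7 in set 2. All 3 controls of set 2 (controls 4, 6 and 7) bear a title with the word ablation although the treatment label calls them control. Their titles have the letter C after the number, as those of the other controls do and those of ablation dishes do not. Values from set 1 alone, which has no control with such a title, stand beside the results. Normalized counts summed to 27297950 to 28504390 per library, and whole reads, recovered in 9 libraries, to 23631212 to 29775699. The basal cell keratin Krt5 averaged 279007 normalized counts after ablation and 274709 in the control, and the secretory cell genes Cbr2 (62293 and 65807) and Cyp2f2 (47108 and 50895) were abundant too. The secretory product Scgb1a1 was low (2.62 and 3.97), as were the ciliated cell regulator Foxj1 (7.81 and 11.9) beside Rsph1 of the same cells (124 and 133), and the mucin Muc5ac (2.28 and 1.54) beside the goblet cell gene Agr2 (317 and 315).

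Airway surface liquid is set by a balance of absorption and secretion. The epithelial sodium channel ENaC, built of α, β and γ subunits encoded by Scnn1a, Scnn1b and Scnn1g, takes up sodium at the luminal membrane, and water follows. Chloride enters the cell at the basolateral side through NKCC1, encoded by Slc12a2, and leaves at the luminal side through CFTR, the cyclic AMP-regulated channel that is mutated in cystic fibrosis, or through the calcium-activated channel ANO1 (TMEM16A). Pendrin, encoded by Slc26a4, exchanges chloride for bicarbonate at the luminal membrane. AQP5 is a water channel of luminal membranes in glands and airways, and AQP4 one of basolateral membranes.

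RefSeq promoter windows on GRCm38.p6 were available for 6 of the 9 genes, and the 250 bases before the start are shown for the 4 genes with the lowest levels, since it is among these that detection ended. They lie at chr7:121734229-121734478 (plus strand) for Scnn1g, chr7:121864788-121865037 (plus strand) for Scnn1b, chr6:18170437-18170686 (plus strand) for Cftr and chr12:31559985-31560234 (minus strand) for Slc26a4. They read 5′ to 3′, with CG dinucleotides in capitals.
Scnn1g: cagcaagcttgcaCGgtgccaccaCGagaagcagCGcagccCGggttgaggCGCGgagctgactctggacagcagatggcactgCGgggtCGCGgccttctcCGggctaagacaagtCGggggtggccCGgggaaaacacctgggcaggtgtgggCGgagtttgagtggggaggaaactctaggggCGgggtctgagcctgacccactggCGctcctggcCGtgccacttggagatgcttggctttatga
Scnn1b: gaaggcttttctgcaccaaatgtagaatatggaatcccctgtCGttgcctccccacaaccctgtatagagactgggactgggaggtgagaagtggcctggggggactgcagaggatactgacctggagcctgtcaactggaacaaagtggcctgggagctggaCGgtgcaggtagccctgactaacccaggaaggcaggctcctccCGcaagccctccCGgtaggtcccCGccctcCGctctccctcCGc
Cftr: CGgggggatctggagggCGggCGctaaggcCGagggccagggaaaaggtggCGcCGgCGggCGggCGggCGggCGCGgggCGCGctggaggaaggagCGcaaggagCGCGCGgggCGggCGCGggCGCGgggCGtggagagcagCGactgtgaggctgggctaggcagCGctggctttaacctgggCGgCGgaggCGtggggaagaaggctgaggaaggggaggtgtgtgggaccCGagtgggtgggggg
Slc26a4: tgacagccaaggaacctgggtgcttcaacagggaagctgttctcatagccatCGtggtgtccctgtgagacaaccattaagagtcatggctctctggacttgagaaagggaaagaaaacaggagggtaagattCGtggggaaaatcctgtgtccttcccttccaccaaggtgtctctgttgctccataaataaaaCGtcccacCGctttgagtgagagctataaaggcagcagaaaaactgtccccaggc

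The 4 windows differed in CG content. Cftr held 30 CG dinucleotides, as many as or more than 94.8% of 32851 windows of this length, Scnn1g held 16, Scnn1b 7 and Slc26a4 4. The median over all windows was 6, with 1 at the 10th percentile and 25 at the 90th. The letters CCGCCC, searched on both strands and present in 32.7% of all windows, occurred 6 times in the Cftr window, 2 times in that of Scnn1g, 1 time in that of Scnn1b and not in that of Slc26a4. TATAAA, present in 12.4% of windows on either strand, occurred 1 time, in the Slc26a4 window. The window of Scnn1b, the gene with the fewest reads, was near the median in CG content.

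Levels differed by orders of magnitude between the genes. Per kb of exon, and as a mean over the 12 libraries, Aqp5 was highest with 24996 ± 1340 normalized counts per kb (SD, n = 12), rank 34 of the 13792 genes tested. Slc12a2 followed with 1900 ± 224 per kb and Aqp4 with 723 ± 243 per kb. Scnn1a (186 ± 23.7 per kb) and Ano1 (114 ± 24.7 per kb) came next, and the ranges of these neighbours overlapped. Cftr (5.74 ± 1.24 per kb) and Slc26a4 (4.95 ± 2.80 per kb) also overlapped, at ranks 13144 and 13277. Scnn1g and Scnn1b stood at 0.246 and 0.0305 per kb and could not be separated from each other. The other neighbours in this order had ranges that did not overlap: Aqp5 was 13.2-fold above Slc12a2, and Ano1 19.9-fold above Cftr.

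**Figure D1:**
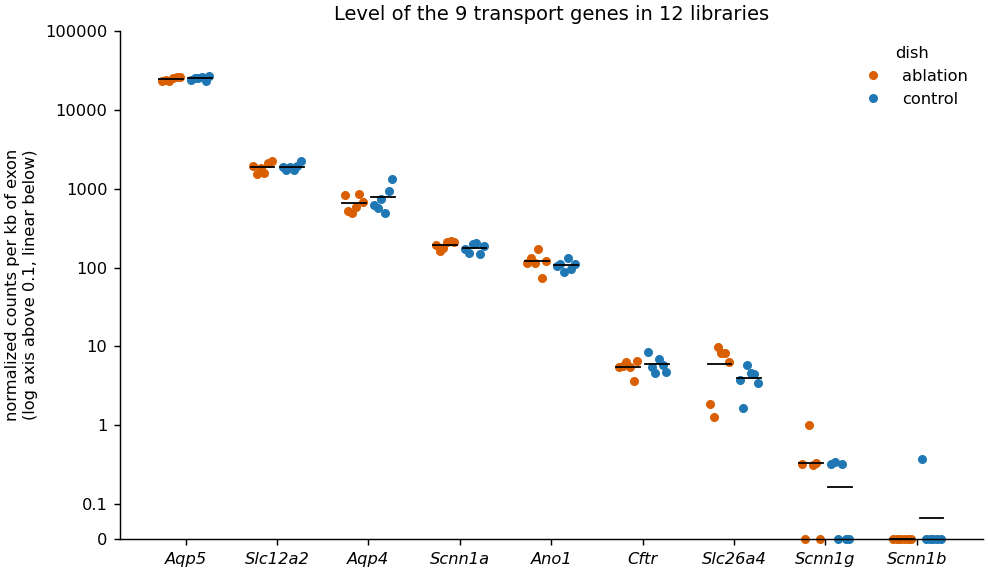
Normalized counts per kb of exon (log axis above 0.1, linear below) of the 9 genes in 6 ablation and 6 control libraries, with 1 point per library and a line at each group mean. Aqp5 lies near 24996, Cftr and Slc26a4 lie between 1.29 and 9.87, and Scnn1b is at 0 in 11 of 12 libraries.

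Of the 3 ENaC subunits, only Scnn1a was measured above the count minimum in these libraries. Scnn1a (chromosome 6, 125320659 to 125344943, plus strand, GRCm38.p6) had a lowest, median and highest value of 663, 833 and 894 normalized counts after ablation and 614, 747 and 847 in the control. It was higher after ablation in 5 of 6 pairs and lower in pair 4, and the groups overlapped. The means of 807 ± 90.6 and 733 ± 98.6 (SD, n = 6) gave a log2 fold change of 0.14 with a 95% interval from -0.07 to 0.35, and the adjusted p was 0.752 with limma, which tested log2(normalized count + 1) with library set as covariate. Pair 6 showed the widest gap of the 6 pairs, from 614 in its control dish to 894 in its ablation dish, and without this pair the log2 fold change was 0.06 (unadjusted p = 0.555, limma). Over the 9 libraries with recovered reads the log2 fold change was 0.26 with edgeR (unadjusted p = 0.0299, adjusted p = 0.803) and 0.27 with DESeq2 (adjusted p = 0.698).

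Scnn1b and Scnn1g, which encode the β and γ subunits, were at or next to 0. Scnn1b (chromosome 7, 121865038 to 121918514, plus strand) was at 0 in all 6 ablation libraries and in 5 of 6 controls, and control 1 held 0.965 normalized counts, which was 1 read. This was the only read among 252388304 in the 9 libraries with recovered reads (95% Poisson interval 0.0253 to 5.57 reads, counting error only). Scnn1g (chromosome 7, 121734479 to 121768475, plus strand) held 0.975, 0, 2.97, 0.939, 0.987 and 0 normalized counts in ablation dishes 1, 3, 4, 5, 6 and 7 and 0.965, 1.02, 0, 0.957, 0 and 0 in the control dishes. The same 9 libraries held 6 reads of Scnn1g (95% Poisson interval 2.20 to 13.1 reads). No difference was detectable at these levels: a two-sided exact permutation test of 6 against 6 libraries gave p = 0.502 for Scnn1g, and Scnn1b, with 1 library above 0, could not be tested.

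Scnn1g and Scnn1b are next to each other among the protein-coding genes of chromosome 7, 96.563 kb apart. The genes on either side were expressed, Usp31 with a mean of 1774 normalized counts next to Scnn1g and Gga2 with 574 next to Scnn1b. Scnn1a, on another chromosome, lies between the cytokine receptor genes Ltbr (3543 normalized counts) and Tnfrsf1a (2847).

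Cftr (chromosome 6, 18170687 to 18322768, plus strand) was detected in every library at a low level. Its lowest, median and highest values were 28.6, 43.1 and 50.6 normalized counts after ablation and 35.2, 43.7 and 65.6 in the control. The groups overlapped between 35.2 and 50.6, and 3 pairs were higher and 3 lower after ablation. With means of 42.8 ± 7.86 and 46.4 ± 11.5 (SD, n = 6) the log2 fold change was -0.10 (95% interval -0.48 to 0.27, limma, adjusted p = 0.911). The SD that counting alone would give, the square root of the mean, was 6.54 and 6.81 beside these SDs of 7.86 and 11.5. An antisense gene, Gm15592, shares 129 exon bases with Cftr on the opposite strand and had 0 counts in the 12 libraries.

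CFTR in the airway is carried at high levels by pulmonary ionocytes, rare cells defined by the transcription factor FOXI1. Foxi1 itself lay between 0 and 5.92 normalized counts in ablation dishes and between 0 and 11.7 in control dishes, and Ascl3, another regulator of these cells, between 0 and 3.95 and between 0.965 and 6.04. Of 13 ionocyte markers, 8 had a mean under 3. Tfcp2l1 (means 2502 and 2850) and Moxd1 (2009 and 2152) were abundant, and made up most of the summed marker level of 3602 to 6449 after ablation and 3932 to 6083 in the control. The proton pump subunit gene Atp6v1c2 had 70.5 and 41.0 (adjusted p = 0.633, limma) and Atp6v1b1 75.3 and 87.5. P2ry14 had means of 5.86 and 5.97, and Bsnd, Atp6v0d2, Atp6v1g3 and Stap1 had means under 1 in both groups.

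Ano1 (chromosome 7, 144588549 to 144751974, minus strand) was the chloride channel with the higher level, 114 against 5.74 normalized counts per kb for Cftr. Lowest, median and highest values of Ano1 were 470, 741 and 1085 normalized counts after ablation and 563, 678 and 841 in the control. It was higher after ablation in 5 of 6 pairs, and pair 6 went from 603 in the control down to 470, the lowest value of the 12. The means of 765 ± 199 and 679 ± 97.4 (SD, n = 6) gave a log2 fold change of 0.14 (95% interval -0.15 to 0.43, limma, adjusted p = 0.821), which was within the spread between libraries.

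Slc26a4 (chromosome 12, 31519827 to 31559969, minus strand) varied most among the 7 genes, with a coefficient of variation of 56.5% over 12 libraries. Ablation dishes 1, 3, 4, 5, 6 and 7 held 5.85, 4.00, 30.7, 25.3, 25.7 and 19.5 normalized counts, and the control dishes 11.6, 5.12, 18.1, 14.4, 13.8 and 10.5. In pairs 4, 5, 6 and 7 the ablation dish was higher, in pairs 1 and 3 it was lower, and pairs 1 and 3 were those of passage P2+14. The means of 18.5 ± 11.1 and 12.3 ± 4.38 (SD, n = 6) gave a log2 fold change of 0.34 with a wide interval, from -0.51 to 1.19 (limma, adjusted p = 0.859). Within library set 2 the log2 fold change was 0.80 (unadjusted p = 0.0245, adjusted p = 0.544, limma) and within set 1 it was -0.13, with opposite signs. The counting SD was 4.30 after ablation and 3.50 in the control, beside these SDs of 11.1 and 4.38.

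Slc12a2 (chromosome 18, 57878678 to 57946821, plus strand), the route of chloride entry, was abundant and even. It had a lowest, median and highest value of 17069, 20963 and 24510 normalized counts after ablation and 18884, 20699 and 24341 in the control. Both groups covered nearly the same range, and 3 pairs were higher and 3 lower after ablation. The means of 20641 ± 3043 and 20858 ± 1962 (SD, n = 6) gave a log2 fold change of -0.02 (95% interval -0.18 to 0.13, limma, adjusted p = 0.959). Pair 7 was highest in both dishes, with 24510 and 24341, and pair 3 lowest in both, with 17069 and 18884.

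Aqp5 (chromosome 15, 99590782 to 99594829, plus strand) was the steadiest of the 7 genes, with a coefficient of variation of 5.36%. Its lowest, median and highest values were 60245, 64232 and 68995 normalized counts after ablation and 60948, 65981 and 69354 in the control. In 5 of 6 pairs the ablation dish was lower and in pair 6 it was higher, 68995 against 60948, and the groups overlapped over nearly their whole range. The means of 64396 ± 3824 and 65535 ± 3360 (SD, n = 6) gave a log2 fold change of -0.03 (95% interval -0.14 to 0.09, limma, adjusted p = 0.930). Its neighbours on the chromosome, the aquaporin genes Aqp2 at 6.235 kb and Aqp6 at 6.571 kb, had means of 4.19 and 0.407 normalized counts.

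Aqp4 (chromosome 18, 15389496 to 15410982, minus strand) varied more. Ablation dishes 1, 3, 4, 5, 6 and 7 held 5130, 3253, 3035, 3633, 5370 and 4243 normalized counts, and the control dishes 3879, 3572, 4691, 3109, 5861 and 8296. The control dish of pair 7 was the highest of the 12, and 4 pairs were lower and 2 higher after ablation. The means of 4111 ± 976 and 4901 ± 1924 (SD, n = 6) gave a log2 fold change of -0.20 (95% interval -0.62 to 0.21, limma, adjusted p = 0.821), which was -0.05 without pair 7 and -0.33 without pair 1. Within set 1 the value was 0.16 and within set 2 it was -0.57 (unadjusted p = 0.0497, adjusted p = 0.627, limma). The controls of set 2, whose titles contain the word ablation, held 4691 to 8296 and those of set 1 3109 to 3879, without overlap, while the ablation dishes of both sets overlapped.

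**Figure D2:**
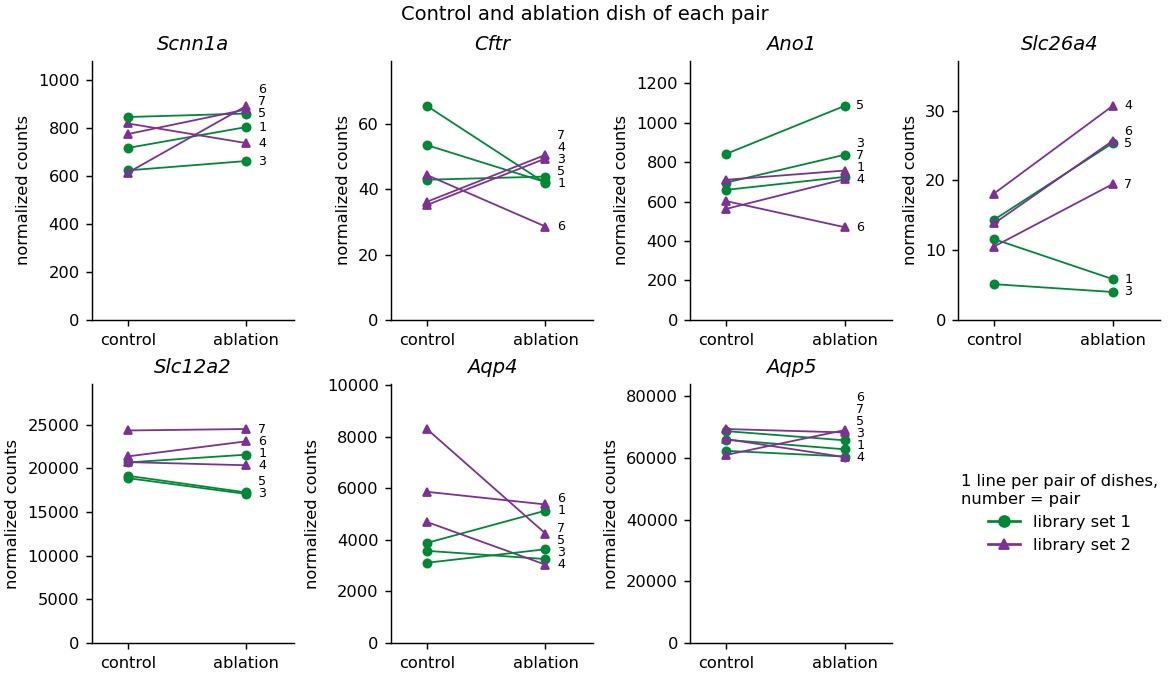
Normalized counts of the 7 genes above the count minimum in the control and the ablation dish of each pair, on axes that start at 0, with 1 line per pair, pair numbers stacked in the order of the ablation values, and colour for library set. Lines of Scnn1a and Ano1 rise in 5 of 6 pairs, those of Aqp4 fall in 4, and Slc26a4 falls in pairs 1 and 3 only.

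None of the 7 tested genes passed the threshold of 0.05 for ablation against control. With limma and library set as covariate 0 of 7 were called, and so were 0% of all 13792 genes, while 7.85% of all genes and 0 of the 7 had an unadjusted p under 0.05. With the pair in place of the library set, limma called 1.09% of all genes and 0 of the 7, whose adjusted p ranged from 0.335 for Scnn1a to 0.821 for Slc12a2. On the 9 libraries with recovered reads edgeR called 0% of all genes and DESeq2 0.0798%, none of the 7 among them. DESeq2 gave no adjusted p for Cftr and Slc26a4. The median log2 fold change of the 7 was -0.02, beside -0.0036 for all genes tested, with 3 above 0 and 4 below. Groups did not overlap for 0.457% of all genes and for none of the 9, and 9.8% of all genes moved the same way in all 6 pairs, none of the 9 among them.

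In library set 1 alone, which leaves out the 3 controls with the word ablation in the title, the log2 fold changes were 0.09 for Scnn1a, -0.31 for Cftr, 0.26 for Ano1, -0.13 for Slc26a4, -0.08 for Slc12a2, 0.16 for Aqp4 and -0.06 for Aqp5. None had an unadjusted p under 0.16 with limma. The intervals bound a change in the mean over all cells of a dish. With all 12 libraries they reached no further than 0.18 from 0 for Slc12a2 and 0.14 for Aqp5, but to 1.19 for Slc26a4. They do not bound a change confined to the cells near the ablated site, which were not measured apart. The paper expected mainly such cells to respond, and therefore small changes in the whole profile.

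**Figure D3:**
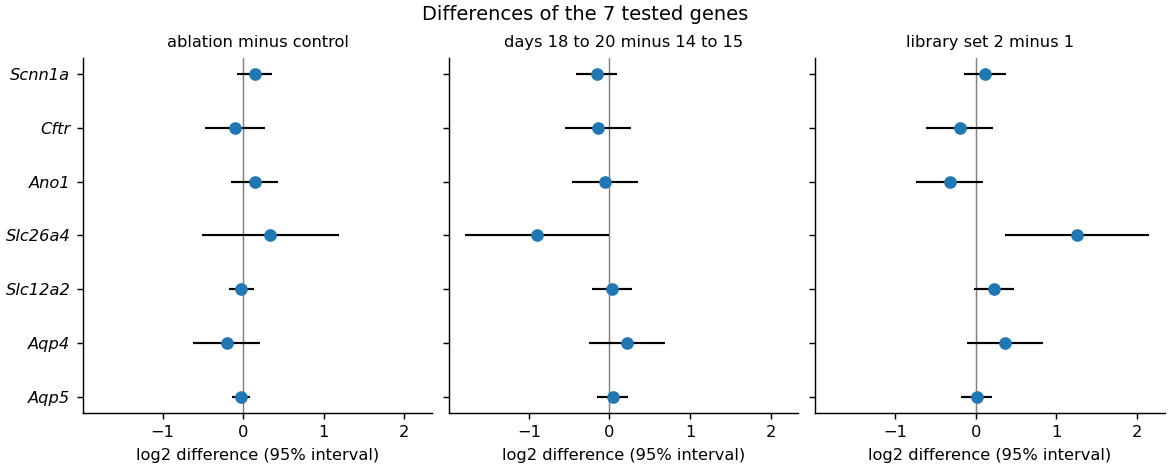
Log2 difference with its 95% interval (limma) of the 7 tested genes for ablation minus control, for culture days 18 to 20 minus 14 to 15, and for library set 2 minus 1. All 7 intervals of the first comparison include 0, and those of Slc26a4 in the other two comparisons, each fitted with the other factor as covariate, do not.

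Culture day and library set were compared over the 6 pair means, 3 against 3, each with the other as covariate. Slc26a4 was the gene of the set with the widest shifts, in both comparisons, and neither passed the threshold. Its log2 difference for late against early days was -0.90 (95% interval -1.79 to -0.01, unadjusted p = 0.0485, adjusted p = 0.762, limma), and no other member had an unadjusted p under 0.18. It was -0.48 (unadjusted p = 0.40) without the covariate, -0.51 with a pseudocount of 10, and from -1.31 to -0.49 with a pair left out, the latter without pair 3 (unadjusted p = 0.395, limma). Of all genes, 6.49% had an unadjusted p under 0.05 for culture day and 0.00725% were called, which was Igfbp5 alone. Between library sets Slc26a4 was 1.25 higher in set 2 on the log2 scale (95% interval 0.36 to 2.15, unadjusted p = 0.0126, adjusted p = 0.442, limma), beside 10.9% of all genes with an unadjusted p under 0.05 and 0% called. Without the covariate it was 0.95 (-0.10 to 2.01, unadjusted p = 0.0699), with a pseudocount of 10 it was 0.71, and without pair 3 it was 0.85 (unadjusted p = 0.169, limma). By passage, the dishes of P2+14 held 4.00 to 11.6 normalized counts of Slc26a4, those of P2+15 14.4 to 30.7 and those of P2+16 10.5 to 25.7. P2+14 occurred only in set 1 and P2+16 only in set 2. At P2+15, with 1 pair from each set, the control dish held 14.4 in set 1 and 18.1 in set 2, and the ablation dish 25.3 and 30.7. Within set 1 the P2+14 dishes, at 4.00 to 11.6, were all below the 2 dishes of the 1 P2+15 pair. Passage was not tested as a term. Both sets shared only P2+15, with 1 pair each, which is too few to tell passage and library set apart.

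For the other 6 members the interval of the difference between library sets included 0 with culture day as covariate. Slc12a2 differed by 0.22 (95% interval -0.03 to 0.47, limma, adjusted p = 0.485), Aqp4 by 0.36 (-0.11 to 0.83), Ano1 by -0.32 (-0.74 to 0.09), Cftr by -0.20 (-0.61 to 0.21), Scnn1a by 0.12 (-0.14 to 0.37) and Aqp5 by 0.01 (-0.18 to 0.21). Without the covariate the interval of Aqp4 began just above 0 (0.43, 95% interval 0.0051 to 0.86, unadjusted p = 0.0479, limma). So did that of Slc12a2 (0.23, 95% interval 0.018 to 0.44, unadjusted p = 0.0371, adjusted p = 0.517, limma). With quantile normalization and the covariate Slc12a2 was 0.27 (95% interval 0.0034 to 0.54, unadjusted p = 0.0478, limma). In the control dishes alone Aqp4 was 0.70 higher in set 2 on the log2 scale (unadjusted p = 0.00909, adjusted p = 0.282, limma), and in the ablation dishes alone the difference was 0.02. Of all 13792 genes, 2093 had an unadjusted p under 0.05 (limma) in the control dishes alone, and 0 were called.

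The response to ablation itself was compared between the sets and between the culture days, with the pair as a term. Aqp4 responded differently by -0.74 in set 2 against set 1 on the log2 scale (95% interval -1.35 to -0.12, unadjusted p = 0.0261, adjusted p = 0.603, limma), and Slc26a4 by 0.93 (-0.12 to 1.99, unadjusted p = 0.0787). Neither passed the threshold, and of all genes 7.88% had an unadjusted p under 0.05 and 0.00725% were called, which was Slc16a3 alone. For culture day 0% of all genes were called, 5.82% had an unadjusted p under 0.05, and the lowest of the members were Scnn1a with 0.26 (unadjusted p = 0.0754) and Ano1 with -0.28 (unadjusted p = 0.0834).

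Around these 9 genes, 88 further genes of ion and water transport were counted in 7 lists, and 67 of them were above the count minimum. With library set as covariate limma called none of the 67, and 9 of them (13.4%) had an unadjusted p under 0.05, beside 7.85% of all genes. With the pair in the model 3 were called (4.48%, beside 1.09% of all genes), all higher after ablation. Their median log2 fold change was 0.01, beside -0.0036 for all genes, with 36 above 0 and 31 below.

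The 3 called with the pair in the model came from 2 lists. Slc4a7, which encodes a sodium bicarbonate cotransporter, had a lowest, median and highest value of 6592, 7585 and 8110 normalized counts after ablation and 5911, 6393 and 7325 in the control. For Slc4a7 limma gave a log2 fold change of 0.20, an adjusted p of 0.0245 with the pair and an adjusted p of 0.540 with the library set. Tmprss2, a membrane serine protease of the kind that can cleave ENaC, had 1449, 2126 and 2512 against 1291, 1681 and 2074, with 0.28 (adjusted p = 0.0152 and 0.619). The study had picked Tmprss2 from these same libraries, so its call is not independent evidence. Clca1, a secreted regulator of calcium-activated chloride currents, had 66.9, 108 and 128 against 49.1, 68.0 and 94.8, with 0.56 (adjusted p = 0.0423 and 0.537). Clca1 has close paralogs that may share its reads, and its value is uncertain to that extent. All 3 were higher after ablation in 6 of 6 pairs, which a call in the paired model favours, so it is no further evidence. Of all genes, 9.8% moved the same way in all 6 pairs. The groups overlapped for each of the 3.

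**Figure D4:**
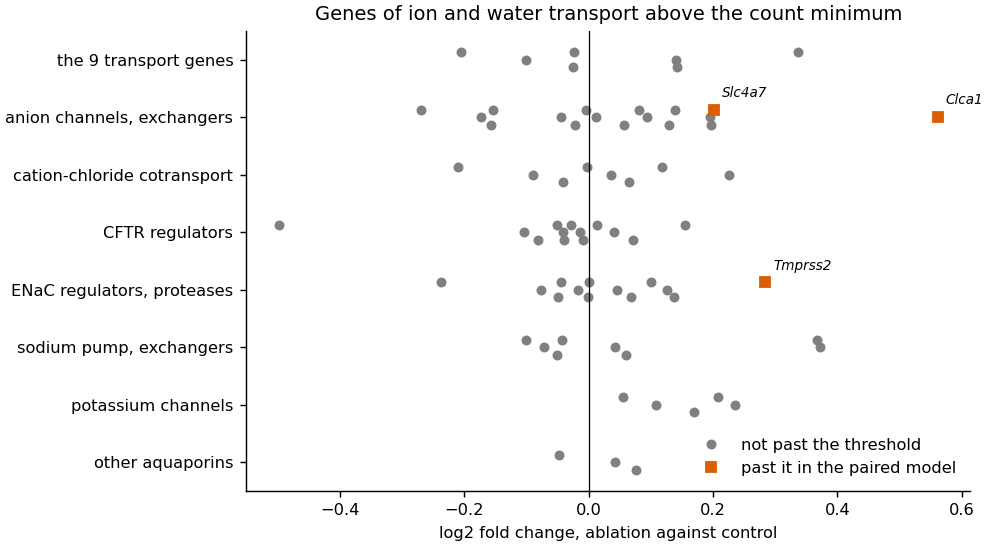
Log2 fold change, ablation against control, of the tested members and of the tested genes of 7 further lists of ion and water transport, with 1 point per gene. Squares mark Slc4a7 (0.20), Clca1 (0.56) and Tmprss2 (0.28), the genes past an adjusted p of 0.05 with the pair in the model, and none of the 9 transport genes is a square.

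By list, 17 of 19 anion channel and exchanger genes were tested, and 2 of them were called with the pair in the model, Slc4a7 and Clca1. Slc4a7 had the most normalized counts of that list, while per kb it stood at 461 beside 466 for the anion exchanger gene Slc4a2. Of the kinases and carriers of cation-chloride cotransport 8 of 11 were tested, led by the kinase gene Wnk1, which regulates NKCC1 (6812 and 6818 normalized counts, log2 fold change -0.0023). The CFTR regulators (13 of 15 tested) were led by Ezr, whose product ezrin ties membrane proteins to actin (11881 and 11998, -0.01). None of either list was called in either model.

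Among regulators and proteases of ENaC 13 of 15 were tested, and Tmprss2 was the 1 called. Spint2, an inhibitor of such proteases, was the most abundant there with 10780 and 11115 normalized counts (log2 fold change -0.04). Of the sodium pump and sodium exchanger genes 8 of 12 were tested, and none was called. All 5 of the 9 potassium channel genes that were tested had log2 fold changes above 0, from 0.05 to 0.23, none called in either model. Kcnk1, the most abundant of them, had 1588 and 1417 normalized counts (0.17, adjusted p = 0.604 with the library set and 0.103 with the pair, limma) and was higher in 6 of 6 pairs.

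Of 7 further aquaporins 3 were tested and none was called. Aqp3, a basolateral channel for water and glycerol known from basal cells, was as abundant per length as Aqp5, at 26349 normalized counts per kb beside 24996. It had a lowest, median and highest value of 39908, 44332 and 69091 normalized counts after ablation and 43851, 47015 and 58946 in the control (log2 fold change -0.05, adjusted p = 0.943, limma). Aqp11 had means of 65.2 and 60.6 normalized counts and Aqp9 24.8 and 23.9, and Aqp1 had 0.483 and 0.389, next to 0.

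Marker lists of other cell types gave no call in the model with library set, and with the pair in the model the basal marker Trp63 (9844 and 7505 normalized counts, adjusted p = 0.00825, limma) and the secretory marker Aldh1a1 (3890 and 2905, adjusted p = 0.00184) rose. Both rose in 6 of 6 pairs, which a call in that model favours. With library set as covariate their adjusted p was 0.187 and 0.530, and the study had picked Trp63 from these libraries as well. They were 1 of 9 tested basal and 1 of 6 tested secretory markers: of the basal list 5 log2 fold changes were above 0 and 4 below, and of the secretory list 2 were above 0 and 4 below, among these Cyp2f2 (-0.16) and Cbr2 (-0.12). Summed levels overlapped between the groups for every list: basal markers had 510995 to 658070 normalized counts after ablation and 507414 to 641536 in the control, secretory markers 75404 to 179640 and 90085 to 151079, ciliated markers 127 to 179 and 142 to 185, and goblet markers 245 to 662 and 234 to 572. Submucosal gland markers had 16107 to 41088 and 17781 to 39964, nearly all of it Ltf, while 6 of the 8 genes of that list had a mean under 3. Alveolar type 1 markers, whose cells also express Aqp5, had 21215 to 27812 and 22018 to 26956, led by Hopx (16885 and 17703), while Ager, which defines these cells, had means of 15.1 and 16.3. The alveolar type 2 gene Sftpc was at 0 in all 12 libraries, and that list, at 1180 to 1402 and 1088 to 1468, was mostly Abca3. Sftpd of the same list had means of 152 and 178, and 5 of its 7 genes had a mean under 3. Stromal markers summed to 17.98 to 42.2 and 18.8 to 48.3, with Pdgfra leading, and immune and endothelial markers to 128 to 161 and 110 to 180, with Cd68 leading. The part of these cell types in the values of the 9 genes was not tested.

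Genes with the most similar pattern were looked for by Pearson correlation of log2 values over the 12 libraries, which share pair, passage and library set, so the values are descriptions. For Ano1 the closest were Rtn2 (0.94), Dtd2 (0.92) and the potassium channel gene Kcnn1 (0.91). For Slc12a2 they were Tspan8, St3gal4 and Sppl2a (0.93, 0.92 and 0.92), and for Scnn1a they were Rab11fip1, AA986860 and Cdc42bpa (0.92, 0.92 and 0.91). Aqp4 was closest to Nlrp10, Egln3 and Akr1b10 (0.92, 0.91 and 0.91), and Slc26a4 to Il1f6, Cxcl15 and Resf1 (0.91, 0.91 and 0.91). The steady Aqp5 was nearest to Pak2, Irgm2 and Slc45a3 (0.88, 0.87 and 0.87), and the low Cftr to Supt7l, Fam131c and Gm6254 (0.83, 0.81 and 0.81). Among the 7 themselves the highest correlation was 0.71, between Slc12a2 and Aqp4, and the lowest was -0.58, between Ano1 and Slc12a2.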

How the data were processed

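RNA of whole organoid dishes had been sequenced from stranded poly(A) libraries. The authors processed the reads with nf-core/rnaseq on the GENCODE annotation of GRCm38.p6. The deposited signal values are the authors' normalized counts, which are reads per gene divided by 1 DESeq2 size factor per library, so a value of 1 is about 1 read. The table as deposited also holds log2 fold changes, scores (standard errors and Wald statistics) and p-values, which the authors computed with DESeq2 for their own comparison and which were not used. In 9 libraries whole reads were recovered. Only the lower values of each library were checked, and in all 12 libraries these were whole multiples of a step within 0.1. In ablation 3, ablation 4 and control 4 the step was too near 1 for the rule applied, and they entered no count test. A count of 0 allows up to 3 reads in a library, for counting error only.

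The 13792 genes that reached 10 normalized counts in 6 or more libraries were tested with limma 3.58.1 in R 4.3.3 on log2(value + 1), with trended robust moderation, library set as covariate and Benjamini-Hochberg adjustment over all of them, at a threshold of 0.05. Fold changes on this scale understate changes of low genes. The batch of the authors' model is not defined in the sources used here and was taken as the library set. Dishes of a pair deviated together from their group means (r from 0.205 to 0.618 over genes). The main model had library set and not the pair, so its intervals leave this pairing out. The pair was the block in a second model and in the comparison of responses. edgeR 4.0.16 and DESeq2 1.42.0 were alternatives on 9 libraries. Culture day and library set were tested on pair means, each with the other as covariate. Scnn1g, under the minimum, had an exact permutation test. Nothing in the labels says that dishes came from separate mice, so p-values measure the spread between dishes. The scripts were tested on simulated data.

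The members and lists were chosen with earlier results of these data known. Named were all members, pathway genes past the threshold, the most abundant gene of each list, all ionocyte markers and the 3 most correlated genes of each tested member, except a few list genes that are not reported here. Scgb1a1, Cyp2f2, Trp63, Aldh1a1, Slc4a2, Foxj1, Muc5ac, Ager, Gprc5a, Pdpn, Clic5, Rtkn2, Akap5, Sftpc, Sftpd and Aqp1, Aqp9 and Aqp11, neighbouring genes, and genes that were alone in a count were named after their values were seen. Gene positions are those of GENCODE M21, which holds 55141 of the 55401 IDs, and promoter windows those of RefSeq.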

Additional observations from a re-analysis of the deposited data

Results flagged for a closer look

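Of 17 groups of member values with 6 libraries each, 2 had a library far from the others. For continuous values chance gives about 1 in 20. Scnn1b in the control was set apart by control 1, with 0.965 normalized counts while the other 5 libraries were at 0. Scnn1g after ablation was set apart by ablation dish 4, with 2.97 normalized counts while the other 5 held at most 0.987. Both values are at or below 3 reads, and the rate of 1 in 20 need not hold for groups of so few reads.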

How the results depend on the processing

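No alternative run for ablation, culture day or library set brought a member past the threshold. For ablation, 116 alternative values of the members kept the direction and 15 did not, all for values whose interval includes 0. With the pair as the replicate block 150 genes were called in place of 0, and 3 list genes in place of 0. Without a filter 3 genes were called (Arrdc3, Tenm4 and Osgin1), and 11 with DESeq2. Signs turned as follows (log2). For Aqp5 the value was 0.0051 with quantile normalization, 0.0074 in set 2 alone, 0.0046 with DESeq2 and 0.0042 with limma on the same 9 libraries, an alternative chosen after seeing the data. For Slc12a2 it was 0.032 in set 2 alone, 0.017 with edgeR, 0.022 with DESeq2 and 0.017 with limma on 9 libraries. Slc26a4 was -0.13 and Aqp4 0.16 in set 1 alone, and Cftr 0.11 in set 2 alone. Leaving out pairs gave -0.22 to 0.0057 for Cftr, -0.050 to 0.0024 for Slc12a2, 0.061 to 0.20 for Scnn1a, 0.096 to 0.24 for Ano1, 0.23 to 0.58 for Slc26a4, -0.33 to -0.052 for Aqp4 and -0.067 to -0.0043 for Aqp5. The cause was not tested.

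For culture day 76 values kept the direction and 8 did not. The 1 gene called became 0 with plain eBayes, without covariate, in control dishes alone and in ablation dishes alone, and 0 to 3 without a pair (Igfbp5, Ndufa4l2 and Etv5 without pair 1). In control dishes alone Ano1 was 0.060 and Aqp5 -0.0064. Leaving out pairs gave -0.32 to 0.0074 for Scnn1a, -0.13 to 0.18 for Slc12a2, -0.18 to 0.61 for Aqp4 and -0.16 to 0.049 for Ano1. For library set 77 kept it and 7 did not. Aqp5 was -0.0020 in control dishes alone and Cftr 0.014 in ablation dishes alone. Leaving out pairs gave -0.025 to 0.055 for Aqp5, -0.051 to 0.28 for Scnn1a and -0.037 to 0.76 for Aqp4. With 1 and 6 reads in the 9 libraries with recovered reads, Scnn1b and Scnn1g carry a wide counting error. Whether more depth would change their values was not tested.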
